A study of Mus musculus with 8 samples.

Results

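The 9 genes described here, S100a8, S100a9, Ltf, Ngp, Camp, Lcn2, Csf3r, Retnlg and Stfa2l1, are transcripts typical of neutrophils, and all 9 were found by symbol among the 15728 genes of the deposited table. They were measured in lungs of mice lacking the endothelial, the inducible and the neuronal nitric oxide synthase at once (triply n/i/eNOSs-/-, called TR; n = 4) and of wild type mice (WT; n = 4). Every animal was labelled as 4 weeks old, unexposed and on a C57BL/6J background. The labels give neither sex nor litter. The assay was CAGE, cap analysis of gene expression. It reads the 5′ end of each capped RNA, so that a value counts transcript starts and does not grow with transcript length. Values are counts per 1000000 reads (CPM).

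Neutrophils are short-lived phagocytes that fill their granules in sequence while they mature in bone marrow. Primary granule genes are read in the earliest precursors, secondary granule genes such as Ltf, Camp, Ngp and Lcn2 in later ones, and most granule transcripts are lost again before the cell enters blood. The lung holds a large pool of mature neutrophils within its capillaries. Despite the common name of the set, not all of its products sit in granules: S100a8 and S100a9 encode a cytosolic calcium- and zinc-binding pair, calprotectin, Csf3r encodes the receptor for granulocyte colony-stimulating factor, and Stfa2l1 belongs to the stefin A inhibitors of cysteine proteases. Lcn2 and Ltf are also made by airway epithelium. In a whole lung, fewer cells of a type and less RNA per cell cannot be told apart.

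The libraries held 13014134 to 15096188 reads in TR and 15598154 to 18593913 reads in WT, recovered from the CPM steps, so every TR library was shallower. Nos3, the endothelial synthase, averaged 7.37 ± 1.49 CPM in TR and 19.8 ± 2.06 CPM in WT (SD, n = 4 each), a log2 fold change of -1.38 (SE 0.137, limma adjusted p = 4.58e-05). No source used here says whether these reads start inside the deleted segment, and Nos1 and Nos2 were not analysed here, so the genotype is checked by Nos3 alone. Among 12 neutrophil markers outside the 9 genes, 8 had a value and 7 were tested, of which 1 was higher and none was lower in TR. That is a share of 14.3% called, beside 30.9% of all genes tested. The median log2 fold change of the 7 was -0.31, against 0.01 over all genes tested. The sum of the 8 was 178 to 235 CPM in TR and 175 to 177 CPM in WT. Wfdc21 was a large part of it, with means of 123 CPM in TR and 79.1 CPM in WT. Mmp9, the gelatinase of tertiary granules, averaged 3.51 ± 0.964 CPM in TR and 4.87 ± 0.909 CPM in WT (limma adjusted p = 0.106). All TR values of Mmp9 (2.07 to 4.11 CPM) lay below all WT values (4.17 to 6.16 CPM), as in 14.3% of all genes tested. Cxcr2, the chemokine receptor of mature neutrophils, averaged 0.713 ± 0.481 CPM in TR and 0.902 ± 0.421 CPM in WT. Ly6g, Il1r2, Clec4d and Mrgpra2b were not analysed here. The set's neutrophil label thus rests on low levels of the defining markers that could be read, beside much higher levels of S100a8, S100a9 and Lcn2.

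Of the 9 genes, 3 were lower in TR (Ltf, Lcn2 and Stfa2l1), none was higher, and 6 did not pass the test, which was limma on log2(CPM + 0.5) with Benjamini-Hochberg adjustment over 14065 genes and a threshold of 0.05. Across all genes tested 30.9% were called in either direction, 16.6% higher and 14.3% lower. With 9 genes, 3 called is a share of 33.3%, close to that background, so the number called says nothing particular about the set. The median log2 fold change, TR minus WT, was -0.20 over the 9 genes and 0.01 over all genes tested. All 9 genes had at least 1 CPM in all 8 libraries, so none passed the filter on low values through 1 genotype alone. The p-values weigh the genotype difference against the spread between these animals, pooled over both genotypes and moderated by a trend over all genes tested.

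**Figure D1:**
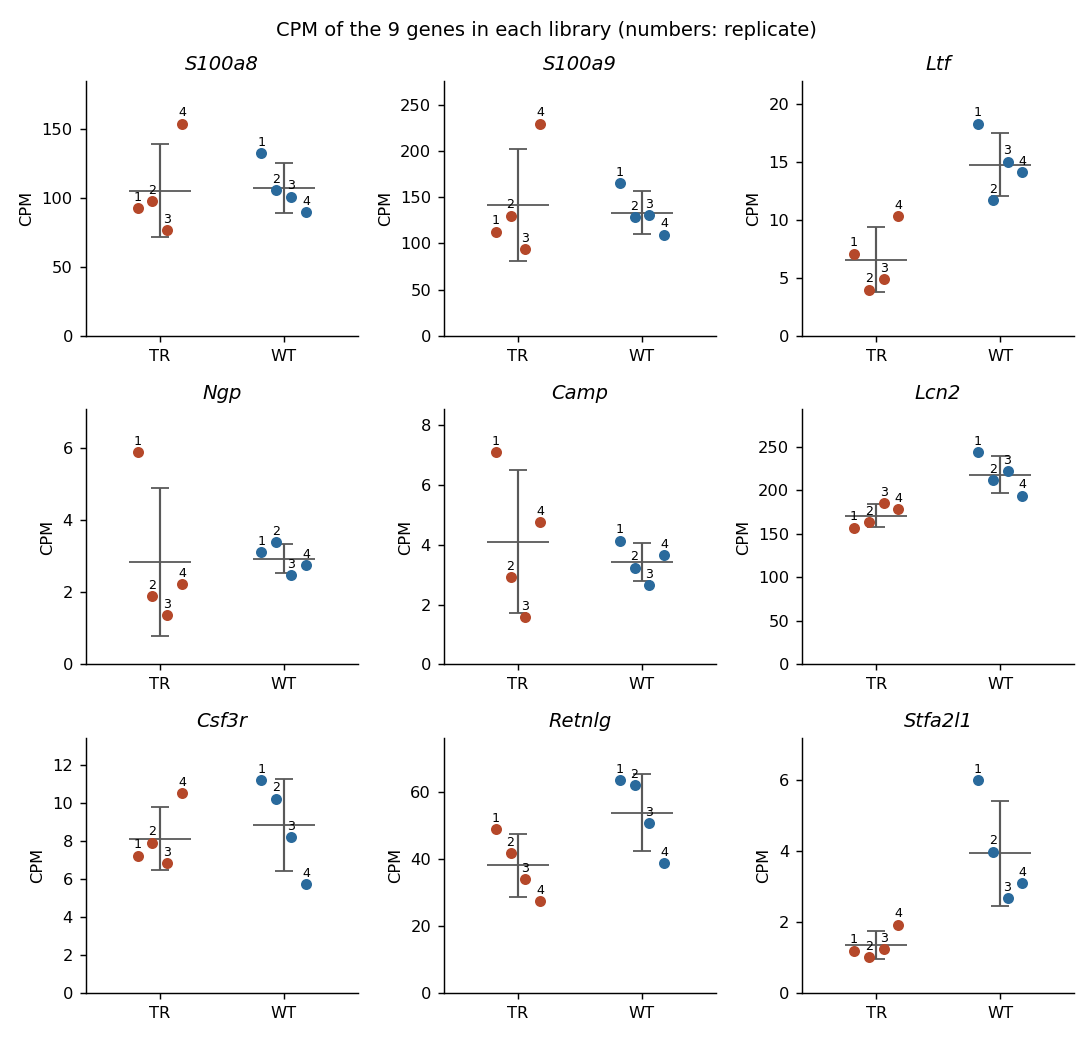
CPM of each gene in the 4 TR (left) and 4 WT (right) libraries on linear axes from 0, with replicate numbers beside the points, the mean as a long bar and the SD as whiskers. The genotypes do not overlap for Ltf, Lcn2 and Stfa2l1, TR replicate 4 is the highest TR library for S100a8 and S100a9 (154 and 230 CPM), and TR replicate 1 is the highest for Ngp and Camp (5.9 and 7.09 CPM).

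S100a8, one chain of calprotectin, stood at 92.9, 97.8, 76.7 and 154 CPM in TR replicates 1 to 4, against 133, 106, 101 and 90 CPM in WT replicates 1 to 4. The highest value of the 8 was in TR replicate 4 and the lowest in TR replicate 3, so the TR libraries enclosed the whole WT range. The log2 fold change was -0.06 (SE 0.184, 95% interval -0.47 to 0.34, limma adjusted p = 0.822), and it turned positive without TR replicate 3 (0.07) or WT replicate 1 (0.04).

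S100a9, the partner chain, stood at 113, 130, 93.8 and 230 CPM in TR replicates 1 to 4, against 165, 128, 130 and 110 CPM in WT replicates 1 to 4. The libraries ranked almost as they did for S100a8, with TR replicate 4 highest and TR replicate 3 lowest, and the genotypes overlapped. The log2 fold change was 0.02 (SE 0.227, 95% interval -0.48 to 0.51, limma adjusted p = 0.964). Its sign was negative under TMM scaling and median-ratio scaling (both under 0.01 in size), under quantile normalization (-0.05) and without TR replicate 4 (-0.24) or WT replicate 4 (-0.07). The intervals leave room for a change from -0.47 to 0.34 in S100a8 and from -0.48 to 0.51 in S100a9, so equality of the genotypes is not shown.

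The paired chains kept nearly fixed proportions. S100a9 exceeded S100a8 by a factor of 1.21 to 1.49 in TR libraries and of 1.21 to 1.29 in WT libraries, with the largest factor in TR replicate 4. With genotype means removed, the correlation of the paired genes on the log2 scale was r = 0.99 over the 8 libraries, the closest of the 36 pairs among the 9 genes. This is a description: the values share their libraries and their totals, and in TR replicate 4 both genes are high. The genes lie next to each other on chromosome 3, on opposite strands.

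Their start regions are shown because these genes moved together from animal to animal. Each line gives the 120 bases before the annotated start, 5′ to 3′ on the gene's strand, from RefSeq on GRCm38.p6 (the authors' reads were placed on another build, mm9). S100a8 covers chr3:90668951-90669070 on the plus strand and S100a9 covers chr3:90695722-90695841 on the minus strand. Capitals mark matches, on either strand, to TATAAA (the TATA box), TTGCNNAA (the core of a C/EBP site) and GAGGAA (a PU.1 site). C/EBP factors and PU.1 are transcription factors of the myeloid lineage.
S100a8: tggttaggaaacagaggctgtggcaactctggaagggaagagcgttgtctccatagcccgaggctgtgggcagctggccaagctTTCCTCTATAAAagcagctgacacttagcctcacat
S100a9: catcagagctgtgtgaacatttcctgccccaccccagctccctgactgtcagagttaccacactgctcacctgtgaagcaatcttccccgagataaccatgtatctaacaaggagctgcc
In S100a8 a TATAAA begins 30 bases before the annotated start, directly behind a PU.1 match on the other strand that begins 36 bases before it, and a further PU.1 match lies 170 bases before it. In S100a9 no match falls within the printed stretch, TATAAA begins at the annotated start itself, and a C/EBP match begins 236 bases before it. Over whole windows of 250 bases before to 50 after the start, TATAAA was present in 13.6%, TTGCNNAA in 10.8% and GAGGAA in 28.3% of the 32851 RefSeq windows. The same letters were present in 2, 5 and 5 of the 9 genes' windows. A match of letters describes the sequence and is no evidence that a factor binds there.

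Ltf, which encodes the iron-binding protein lactoferrin of secondary granules and of airway secretions, stood at 7.09, 3.99, 4.9 and 10.3 CPM in TR replicates 1 to 4, against 18.3, 11.7, 15 and 14.1 CPM in WT replicates 1 to 4. Every TR library lay below every WT library, and TR replicate 4 was the nearest to WT. In reads, Ltf had 59 to 134 in TR and 217 to 306 in WT. It averaged 6.57 ± 2.81 CPM in TR and 14.8 ± 2.74 CPM in WT (SD, n = 4 each), a TR to WT ratio of 0.445. Ltf fell by 1.18 on the log2 scale (SE 0.238, 95% interval -1.70 to -0.65, limma adjusted p = 0.00405), and over the 19 alternatives the adjusted p ran from 4.54e-05 to 0.0144. Genotypes did not overlap for 3 of the 9 genes (Ltf, Lcn2 and Stfa2l1), each with all TR below all WT. Over all genes tested that share was 31.2%, made up of 16.8% with all TR above and 14.3% with all TR below all WT.

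Lcn2, which encodes lipocalin 2, a carrier that withholds iron-binding siderophores from bacteria, stood at 157, 164, 185 and 179 CPM in TR replicates 1 to 4, against 244, 212, 223 and 194 CPM in WT replicates 1 to 4. All TR values lay below all WT values, although TR replicate 3 and WT replicate 4 came close. The means were 171 ± 12.9 CPM in TR and 218 ± 20.9 CPM in WT (SD, n = 4 each). Lcn2 fell by 0.35 on the log2 scale (SE 0.0796, 95% interval -0.52 to -0.17, limma adjusted p = 0.00761), a smaller step than that of Ltf. It was also the most abundant of the 9 genes, holding 28.8% to 45.6% of their summed CPM in TR and 37.7% to 42% in WT.

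Ngp, neutrophilic granule protein, a cathelicidin-like protein of secondary granules in the mouse, stood at 5.9, 1.89, 1.38 and 2.23 CPM in TR replicates 1 to 4, against 3.11, 3.39, 2.48 and 2.76 CPM in WT replicates 1 to 4. TR replicate 1 was above all WT libraries and the other TR libraries were below all of them. The log2 fold change was -0.20 (SE 0.308, 95% interval -0.88 to 0.48, limma adjusted p = 0.655). Without TR replicate 1 it was -0.57 and was called (limma adjusted p = 0.0268), and without TR replicate 3 it was 0.02. Ngp rested on 20 to 89 reads in TR and 43 to 63 reads in WT.

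Camp, which encodes the mouse cathelicidin, an antimicrobial peptide precursor, stood at 7.09, 2.91, 1.59 and 4.76 CPM in TR replicates 1 to 4, against 4.13, 3.23, 2.66 and 3.65 CPM in WT replicates 1 to 4. TR replicates 1 and 4 were above all WT libraries, TR replicate 3 was below all of them, and TR replicate 2 was within their range. The log2 fold change was 0.08 (SE 0.322, 95% interval -0.63 to 0.79, limma adjusted p = 0.866). It turned negative without TR replicate 1 (-0.21), TR replicate 4 (-0.04) or WT replicate 3 (-0.02).

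Ltf, Ngp and Camp are secondary granule genes on chromosome 9, and of these Ltf alone was called. CPM of Ltf exceeded that of Camp by a factor of 1 to 3.08 in TR libraries and of 3.61 to 5.64 in WT libraries, and these ranges do not overlap. Ltf over Ngp was 1.2 to 4.62 in TR and 3.44 to 6.05 in WT, and these ranges overlap, as do those of Ngp over Camp (0.468 to 0.868 in TR and 0.753 to 1.05 in WT). The separation was thus seen against Camp and not against Ngp. With genotype means removed, Ngp and Camp correlated at r = 0.87 over the 8 libraries, Ltf and Camp at 0.61, and Ltf and Ngp at 0.32, all as descriptions.

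The start regions of these genes are printed because Ltf and Lcn2 were called lower and Ngp and Camp varied together. Each line is again the 120 bases before the annotated start on the gene's strand (RefSeq, GRCm38.p6), with the same capitals. Ltf covers chr9:111019172-111019291 and Ngp chr9:110419688-110419807, both on the plus strand, Camp covers chr9:109849457-109849576 on the minus strand, and Lcn2 covers chr2:32387740-32387859 on the minus strand.
Ltf: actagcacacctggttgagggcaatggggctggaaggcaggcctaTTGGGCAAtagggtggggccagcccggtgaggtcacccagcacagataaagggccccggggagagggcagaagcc
Ngp: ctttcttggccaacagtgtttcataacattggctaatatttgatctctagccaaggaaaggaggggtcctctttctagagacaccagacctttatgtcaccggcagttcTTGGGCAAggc
Camp: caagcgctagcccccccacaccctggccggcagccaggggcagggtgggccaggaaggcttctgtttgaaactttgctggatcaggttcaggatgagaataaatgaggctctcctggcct
Lcn2: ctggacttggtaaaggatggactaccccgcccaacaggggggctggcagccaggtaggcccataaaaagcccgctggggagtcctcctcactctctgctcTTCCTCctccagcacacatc
Ltf and Ngp hold the same C/EBP letters on the other strand, beginning 75 bases before the start in Ltf and 11 in Ngp. Outside the stretch Ltf holds a PU.1 match 157 bases before the start and Ngp a C/EBP match 138 bases before it. The Lcn2 stretch holds a PU.1 match that begins 20 bases before the start, and its C/EBP match lies outside the stretch, 216 bases before the start. Camp holds none of the searched letters within the window. No match says only that these letters are not there.

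Csf3r, the receptor through which granulocyte colony-stimulating factor drives neutrophil production, stood at 7.22, 7.91, 6.83 and 10.5 CPM in TR replicates 1 to 4, against 11.2, 10.2, 8.2 and 5.71 CPM in WT replicates 1 to 4. The genotypes overlapped fully, with both extremes of the 8 values in WT. The log2 fold change was -0.09 (SE 0.194, 95% interval -0.52 to 0.33, limma adjusted p = 0.751), and it was 0.03 without WT replicate 1.

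Retnlg, which encodes a resistin-like secreted protein made by mouse neutrophils, stood at 48.8, 41.8, 34 and 27.4 CPM in TR replicates 1 to 4, against 63.3, 62, 50.7 and 38.7 CPM in WT replicates 1 to 4. TR replicates 1 and 2 lay above the lowest WT library, so the genotypes overlapped, although the mean was lower in TR (38 ± 9.29 CPM in TR and 53.7 ± 11.5 CPM in WT, SD, n = 4 each). The log2 fold change was -0.50 (SE 0.185, 95% interval -0.90 to -0.09), which missed the threshold (limma adjusted p = 0.062). It passed on the recovered reads with edgeR's quasi-likelihood test (adjusted p = 0.0405) and with DESeq2 (adjusted p = 0.0123), beside 32.5% and 31.7% of all genes called by these tools, and in limma with TMM scaling (adjusted p = 0.0405), median-ratio scaling (adjusted p = 0.0407) or quantile normalization (adjusted p = 0.036). Leaving out TR replicate 1 (adjusted p = 0.0224) or WT replicate 4 (adjusted p = 0.0222) also brought it past the threshold in limma. Under these alternatives the log2 fold change was -0.64 to -0.52, so Retnlg sits at the edge of the call. The start of the Retnlg transcript matches the listed gene Retnla at 90.5% over 199 nt. How reads were divided between Retnlg and Retnla was not given in the sources used here. The effect of that division on the values of Retnlg was not tested.

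Stfa2l1, a stefin A gene of mouse neutrophils, stood at 1.19, 1.01, 1.24 and 1.92 CPM in TR replicates 1 to 4, against 5.98, 3.98, 2.66 and 3.08 CPM in WT replicates 1 to 4. All TR values lay below all WT values, and WT replicate 1 was the highest. Reads numbered 15 to 25 in TR and 46 to 100 in WT. It averaged 1.34 ± 0.399 CPM in TR and 3.93 ± 1.48 CPM in WT (SD, n = 4 each), a TR to WT ratio of 0.341, the lowest of the 9 genes. Stfa2l1 fell by 1.23 on the log2 scale (SE 0.228, 95% interval -1.73 to -0.73, limma adjusted p = 0.00252), which understates the change of so low a gene.

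Stfa2l1 lies in a cluster of related stefin A genes on chromosome 16, and its value depends on how reads were divided between them. Gm49652, which has no row in the table used here, matches the first 200 nt of Stfa2l1 at 98.2% over 112 nt. Stfa2, also with no row, matches at 94.1% over 102 nt, and the listed relatives Stfa1, Stfa3, BC100530 and Gm5483 match at 83.7% to 88.2%. Stfa1 averaged 0.468 ± 0.312 CPM in TR and 1.66 ± 0.287 CPM in WT (limma adjusted p = 0.0025). It passed the filter only through its WT values, so its lack of overlap between genotypes was fixed by the filter. The call held in the 18 alternatives that tested it. Under the filter, BC100530 had 12 reads in all TR libraries together and 66 in WT, Gm5483 had 13 in TR and 49 in WT, and Stfa3 had 3 in TR and 12 in WT. In the fit with no filter BC100530 (adjusted p = 0.00614) and Gm5483 (adjusted p = 0.037) were called lower by limma and Stfa3 was not (adjusted p = 0.218). Summed over Stfa2l1 and these relatives, the level was 1.76 to 3.38 CPM in TR and 5.21 to 11.5 CPM in WT, with no overlap between genotypes. Stfa3, BC100530 and Gm5483 were chosen after their values were seen.

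**Figure D2:**
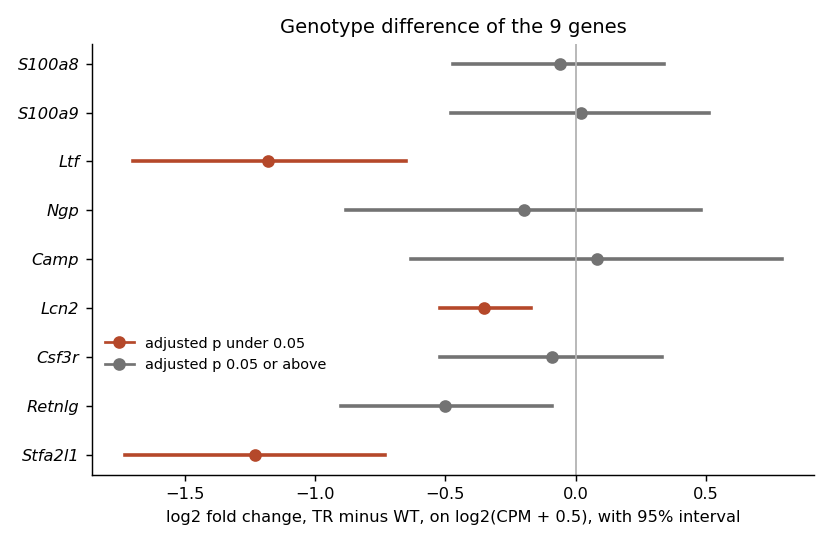
Log2 fold change of each gene, TR minus WT, with its 95% interval from limma; points left of 0 are lower in TR. Ltf, Lcn2 and Stfa2l1 (coloured) were called, the interval of Retnlg ends at -0.09 without an adjusted p under 0.05, and the intervals of the other genes include 0.

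The start region of Stfa2l1 is shown as that of the largest fall among the 9 genes (chr16:36156691-36156810, plus strand, RefSeq, GRCm38.p6). Its capitals mark a PU.1 match on the other strand that begins 86 bases before the start.
Stfa2l1: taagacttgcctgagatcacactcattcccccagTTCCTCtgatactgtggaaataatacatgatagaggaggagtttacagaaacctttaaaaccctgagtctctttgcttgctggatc

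The 9 genes together held 440, 451, 406 and 619 CPM in TR replicates 1 to 4, against 648, 540, 536 and 462 CPM in WT replicates 1 to 4, and Lcn2, S100a8 and S100a9 made up 82.4% to 90.8% of that in TR and 82.5% to 85.3% in WT. Animals of 1 genotype differed widely, for several genes more so in TR. The SD was 72.4% of the mean in TR and 13.6% in WT for Ngp, 58.4% and 18.3% for Camp, and 42.7% and 17.4% for S100a9. For Ltf it was 42.7% and 18.6%, for S100a8 31.9% and 16.9%, and for Retnlg 24.4% and 21.4%. Csf3r (20.5% and 27.4%), Lcn2 (7.51% and 9.6%) and Stfa2l1 (29.8% and 37.6%) varied more in WT. The log2 SDs that follow pool both genotypes. Of all genes tested the median SD within genotypes was 0.144 on the log2 scale, whereas Camp had 0.592, Ngp 0.557, Ltf 0.435, S100a9 0.429, Stfa2l1 0.382 and S100a8, Csf3r and Retnlg 0.342 each. These 8 genes ranked between 129 and 784 from the most variable of 14065, that is within the top 5.57%, while Lcn2, at 0.124, ranked 8635. Ngp, Camp and Stfa2l1 rested on 15 to 107 reads per library, so counting error weighs more on them than on S100a8 and S100a9, which had at least 1112 reads in every library.

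**Figure D3:**
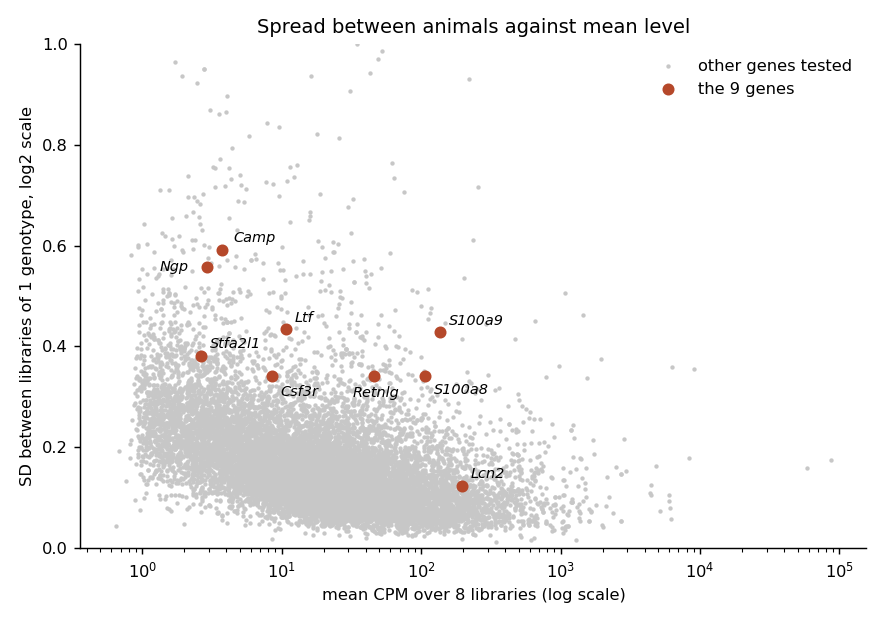
SD between libraries of 1 genotype, pooled over both genotypes, on the log2 scale against mean CPM over the 8 libraries (log axis). All genes tested are grey and the 9 genes red. Outside the axis lie 38 genes with an SD above 1. S100a9 (0.429) and S100a8 (0.342) stand above most genes of like level, and Lcn2 (0.124) lies among them.

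Which animal stood high depended on the gene. TR replicate 4 was the highest TR library for 5 of the 9 genes (S100a8, S100a9, Ltf, Csf3r and Stfa2l1) and the lowest for Retnlg. TR replicate 1 was the highest for 3 (Ngp, Camp and Retnlg), and TR replicate 3 was the lowest for 5. WT replicate 1 was the highest WT library for 8 of the 9 genes, all except Ngp, and WT replicate 4 was the lowest for 5. S100a8, S100a9 and Csf3r varied together (r = 0.79 to 0.99 between pairs), whereas Retnlg correlated at -0.28 to 0.54 with the other genes, over the 8 libraries with genotype means removed.

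**Figure D4:**
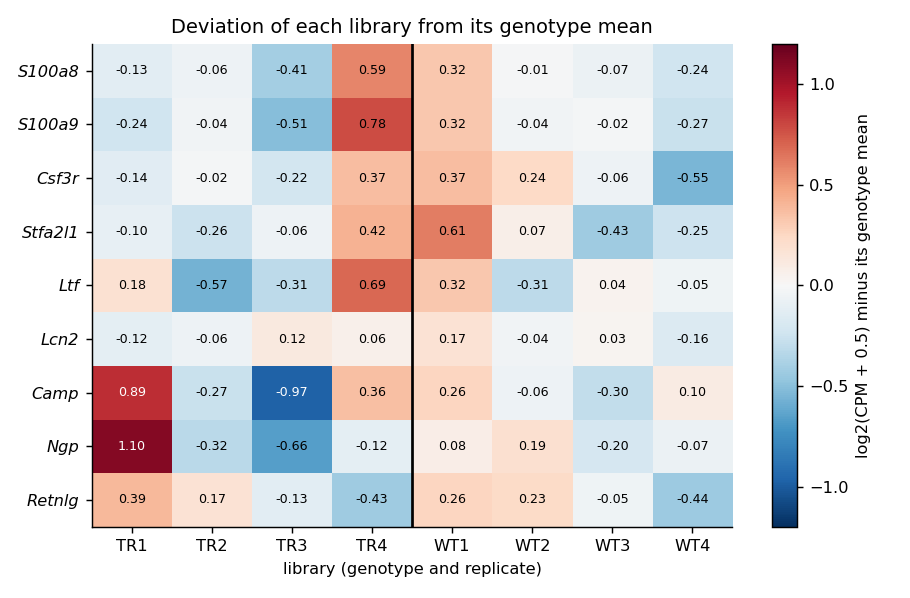
Log2(CPM + 0.5) of each gene in each library minus its genotype mean, with TR libraries left of the line and WT libraries right of it. TR replicate 4 is high for S100a8 (0.59), S100a9 (0.78) and Ltf (0.69), TR replicate 1 is high for Ngp (1.10) and Camp (0.89), and TR replicate 3 is low for Camp (-0.97) and Ngp (-0.66).

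TR replicate 1 also stood apart in other cell type markers. Summed over the 4 listed cycling cell markers it had 7.48 CPM, against 24.2 to 29 CPM in the other TR libraries and 9.52 to 11.2 CPM in WT. Over the 5 B cell markers it had 125 CPM, against 34 to 66.3 CPM in the other TR libraries and 93.5 to 142 CPM in WT. Without TR replicate 1, 5 of the 9 genes were called lower (Ltf, Lcn2, Stfa2l1, Ngp and Retnlg), beside 31.9% of all genes called in either direction and 14.9% called lower. The part of these differences in the result for Ngp and Retnlg was not tested.

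Markers of airway secretory epithelium, a known second source of Lcn2 and Ltf, were read beside the lower genes. All 8 were listed, 4 were lower in TR and none was higher, beside 14.3% of all genes lower and 30.9% called either way. The 4 not called were Scgb1a1, Scgb3a2, Bpifa1 and Cyp2f2. Their sum was 82042.1 to 111601.4 CPM in TR and 85020.0 to 106018.3 CPM in WT, nearly all of it Scgb1a1 (89789.8 ± 11499.9 CPM in TR and 83216.0 ± 9650.2 CPM in WT, limma adjusted p = 0.546). Reg3g, an antibacterial lectin, averaged 23.7 ± 18.8 CPM in TR and 100 ± 28.8 CPM in WT (log2 fold change -2.29, limma adjusted p = 0.00179). Scgb3a1, a secretoglobin of the upper airways, averaged 832 ± 328 CPM in TR and 2059.2 ± 442 CPM in WT (limma adjusted p = 0.00208). The mucin gene Muc5b fell by 1.07 and Bpifb1, another secreted airway protein, by 0.97 on the log2 scale, the genotypes of Bpifb1 overlapping. For Reg3g, Scgb3a1, Muc5b and Bpifb1, as for Ltf, TR replicate 4 was the TR library nearest to WT. The same held for the stefin genes Stfa2l1 (-0.81 in TR replicate 4, log2 shift from the WT mean) and Stfa1 (-0.60). Stfa1, however, passed the filter only through its WT values and had 0.21 to 0.92 CPM in TR, where counting error is large. Lcn2 was nearest in TR replicate 3 (-0.23), with -0.28 in TR replicate 4. Not called lower, S100a8, S100a9, Csf3r and Scgb1a1 (103153 CPM) also had their highest TR value in TR replicate 4. High values there were thus not particular to the lower genes. The part of airway cells in the lower values of Ltf and Lcn2 was not tested.

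**Figure D5:**
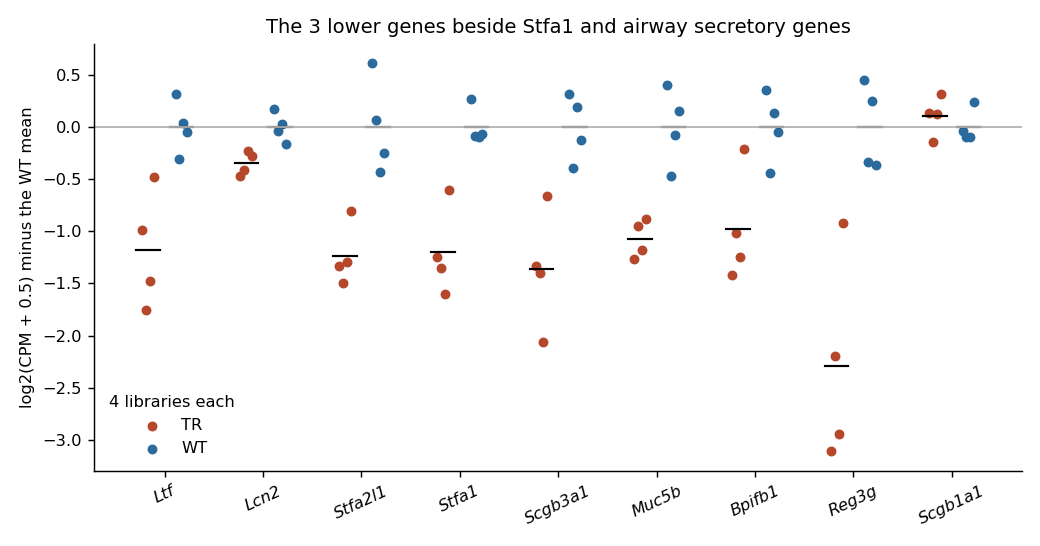
Log2(CPM + 0.5) minus the WT mean for the 3 genes called lower, for the stefin relative Stfa1 and for airway secretory genes, with 4 TR (left) and 4 WT (right) points per gene and the mean as a bar. The airway markers are those called lower and Scgb1a1, and the uncalled Scgb3a2, Bpifa1 and Cyp2f2 are not drawn. Ltf, Stfa2l1, Stfa1, Scgb3a1, Muc5b, Bpifb1 and Reg3g lie lower in TR, Lcn2 by less, and Scgb1a1 does not (limma adjusted p = 0.546). Stfa1 passed the filter only through its WT values, so its lack of overlap between genotypes was fixed by the filter.

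Other blood cells were read the same way. Of all genes tested 14.3% were lower and 16.6% higher in TR. Of 7 red cell genes 4 were lower and 1 higher, with sums of 7517.8 to 11362.4 CPM in TR and 8825.2 to 17353.5 CPM in WT. The higher gene was Hba-a1, and its relative Hba-a2 was among the lower. How reads were divided between them was not given in the sources used here. WT replicate 1, highest for 8 of the 9 neutrophil genes, also held the highest red cell sum (17353.5 CPM). Of 5 tested platelet genes 2 were lower, and of 5 T cell genes 1 was lower. Monocyte and macrophage markers went the other way, with 5 of 14 higher, none lower and sums of 581 to 645 CPM in TR and 477 to 527 CPM in WT. Of 8 markers of eosinophils, basophils and mast cells only 3 had a value and 1 was tested, so little can be said of these cells. The sums of those 3 were 1.66 to 3.25 CPM in TR and 2.25 to 2.75 CPM in WT. Epx, Mcpt8, Cpa3, Fcer1a and Ms4a2 were not analysed here. The share of any of these cells in the differences of the 9 genes was not tested.

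Other genes listed for neutrophil granules were called in both directions. The median log2 fold change was -0.34 over the tested secondary granule genes outside the set. It was -0.29 over the tertiary granule and secretory vesicle genes, against 0.01 over all genes tested. The primary granule gene Prtn3, a serine protease, stood at 0.34 to 0.99 CPM in TR and 0.38 to 1.21 CPM in WT, under the filter, and the other 5 genes of that list were not analysed here. Of 8 tested secondary granule genes outside the set, 2 rose and 1 fell. A further gene was called lower without TR replicate 3 (Hp, haptoglobin, limma adjusted p = 0.0254) or TR replicate 4 (Cd177, a surface protein, limma adjusted p = 0.015). Pglyrp1, a bacterial cell wall binding protein, rose to 30.4 ± 4.09 CPM in TR, against 13.5 ± 1.67 CPM in WT (limma adjusted p = 4.38e-05). The lysozyme genes moved apart: Lyz1 rose to 381 ± 40.7 CPM in TR, against 250 ± 33 CPM in WT, and Lyz2, which macrophages and alveolar type 2 cells also express, fell to 3515.2 ± 358 CPM in TR, against 5347.2 ± 359 CPM in WT. Both lysozyme genes stood far above Mmp9 (3.51 CPM in TR and 4.87 CPM in WT). Which cells their reads came from was not tested. Of 9 tertiary granule and secretory vesicle genes 1 rose and 2 fell. Itgb2, the integrin chain shared by leukocytes, rose by 0.51 on the log2 scale (limma adjusted p = 0.000218). Fpr1, the receptor for bacterial formyl peptides, fell to 8.68 ± 0.716 CPM in TR, against 14.7 ± 1.5 CPM in WT (limma adjusted p = 0.000451), and the metalloprotease gene Adam8 fell by 0.55 on the log2 scale.

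In the list of mature neutrophil genes 1 of 13 tested rose and 4 fell, with a median log2 fold change of -0.22 over the 13. Wfdc21, a small secreted protein, rose to 123 ± 25.7 CPM in TR, against 79.1 ± 4.17 CPM in WT (limma adjusted p = 0.0057). G0s2, a lipase inhibitor, fell to 128 ± 15.5 CPM in TR, against 188 ± 36.8 CPM in WT. Slfn1 fell by 0.58 and Msrb1 by 0.22 on the log2 scale. Only 2 of this list were lower without TR replicate 2 or 3 or WT replicate 1, 2 or 3, where Slfn1 (limma adjusted p = 0.0657 to 0.0958) and Msrb1 (limma adjusted p = 0.0543 to 0.127) lost their calls. Msrb1 also lost it without TR replicate 1 or 4 or WT replicate 4 (limma adjusted p = 0.0572 to 0.0634). Msrb1 was chosen after its values were seen. Shares called in these lists, 33.3% to 38.5%, are again near the 30.9% of all genes.

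Regulators and signals of the lineage had 20% (transcription factors), 40% (Csf3r signalling) and 16.7% (phagocyte oxidase) of tested genes called, beside 30.9% of all genes. Of 5 tested transcription factors of granulopoiesis only Spi1, the gene of PU.1, was called, at 86.9 ± 2.67 CPM in TR and 65.7 ± 3.51 CPM in WT (limma adjusted p = 0.000782). Cebpb, another factor of the list, missed the threshold (limma adjusted p = 0.0649) but was called higher without TR replicate 4 (limma adjusted p = 0.00986) or WT replicate 2 (limma adjusted p = 0.0333) and with DESeq2 (adjusted p = 0.0437). Of 10 tested genes of Csf3r signalling, the kinase gene Lyn rose by 0.37 and the phosphatase gene Ptpn11 by 0.25 on the log2 scale, while the kinase genes Jak2 and Jak1 fell by 0.39 and 0.20. The call of Ptpn11 ended without TR replicate 2 or 4 or WT replicate 1, 2 or 3 (limma adjusted p = 0.0543 to 0.0951), that of Jak2 without TR replicate 3 (limma adjusted p = 0.051) and that of Jak1 without WT replicate 2 or 3 (limma adjusted p = 0.0642 and 0.0619). Of 6 genes of the phagocyte oxidase, Cybb was called higher by a small margin (limma adjusted p = 0.0491), which ended without TR replicate 1, 3 or 4 or WT replicate 2, 3 or 4 (limma adjusted p = 0.0539 to 0.126) and under 7 other alternatives.

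Of 10 tested genes of recruitment and adhesion 3 rose and 2 fell, a share of 50% called beside 30.9% of all genes. Cxcl15, a chemokine made by lung epithelium in mice, rose to 774 ± 73.5 CPM in TR, against 567 ± 68.5 CPM in WT (limma adjusted p = 0.00478), and Cxcl12, which retains neutrophils in marrow and lung through Cxcr4, rose to 226 ± 19.3 CPM in TR, against 165 ± 11.7 CPM in WT (limma adjusted p = 0.00138). Cxcr4 itself fell to 2.43 ± 0.476 CPM in TR, against 3.98 ± 0.592 CPM in WT (limma adjusted p = 0.0101), and C5ar1, the receptor for complement C5a, fell by 0.38 on the log2 scale. Csf1, which acts on macrophages, rose by 0.30, a call that ended without TR replicate 2 or 3 or WT replicate 1 or 4 (limma adjusted p = 0.0537 to 0.0613). Cxcl1, a ligand of Cxcr2, was under the filter, with 23, 23, 13 and 18 reads in TR replicates 1 to 4, against 2, 2, 1 and 0 reads in WT replicates 1 to 4, and was called higher in the fit with no filter (limma adjusted p = 4.32e-05). Csf1 and Cxcl1 were chosen after their values were seen.

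Among 9 tested receptors for the products of the 9 genes 2 fell and none rose, a share of 22.2% called beside 30.9% of all genes. Cd14, a partner of the receptor Tlr4 on which S100a8 and S100a9 act, fell to 10.3 ± 1.11 CPM in TR, against 14.9 ± 1.45 CPM in WT (limma adjusted p = 0.00354). Slc22a17, a receptor for lipocalin 2, fell by 0.39 on the log2 scale (limma adjusted p = 0.0376), and its call ended without any 1 of the 8 libraries except TR replicate 2 (limma adjusted p = 0.0506 to 0.0937).

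The genes whose animal-to-animal pattern was most like that of the set were Sult2b1 and Adig (r = 0.97), 3110082I17Rik and Gm16881 (r = 0.95), and Sult5a1 and Ncapg2 (r = 0.94). Likeness was the Pearson correlation over the 8 libraries, after removal of genotype means, with the mean of the 9 standardised profiles. These genes averaged 1.88 to 4.73 CPM per genotype. Being the best of 14065 genes on 8 points, they describe these libraries only. Adig was called lower in TR (limma adjusted p = 0.0278), a call that ended without TR replicate 2 or 3 or WT replicate 1 or 3, and so was Sult5a1 (limma adjusted p = 0.00827). Of the 9 genes themselves S100a8 (0.88) and Csf3r (0.84) followed that mean most closely and Retnlg (0.27) least.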

How the data were processed

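Total RNA of lungs from 8 mice was made into cap-trapped CAGE libraries and sequenced in 1 pool (single-end, 75 nt), per the labels. HISAT2 2.0.5, BWA 0.7.12-r1039, edgeR and the build mm9 are named, with no role, per the submitters' processing notes. Counting of reads per gene and the use of strand were not given in the sources used here. The values deposited by the authors are CPM with 2 decimals, and each column sums to 1000000 within rounding. Whole reads were recovered from the CPM steps (100% of values whole to within 0.1 reads). Floors and counting intervals would cover counting error only, and 3 reads correspond to 0.161 to 0.231 CPM.

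The 14065 genes that reached 1 CPM in 4 or more libraries were tested with limma 3.58.1 in R 4.3.3 on log2(CPM + 0.5), with a variance trend and genotype as the only term. Adjusted p are two-sided Benjamini-Hochberg values over all of them. edgeR 4.0.16 and DESeq2 1.42.0 were run on the recovered reads. The tests were also run on simulated counts with the same dispersion in both genotypes, unlike the spread of several of the 9 genes. That run is no evidence for the calls made here. The 9 genes, the gene lists and the tests were chosen with earlier results of these data known. The text names the 9 genes, Nos3, up to 4 called genes per list by adjusted p (or its most abundant gene) and 6 genes by likeness. Mmp9, Cxcr2, Cebpb, Hp, Cd177, the airway genes and those so marked were chosen after their values were seen. Names were looked up in GENCODE M21 for 15066 of 15728 identifiers. Wfdc21 and Spi1 are listed by the authors as 1100001G20Rik and Sfpi1, and Msrb1 as Sepx1. No other annotated gene overlaps any of the 9. Replicate numbers are shared by the genotypes but are not stated to pair animals. The values of 1 gene of the mature neutrophil list are not reported here.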

Additional observations from a re-analysis of the deposited data

Results flagged for a closer look

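Of 126 groups of 4 libraries examined, 10 had a highest or lowest value whose gap to the next library, divided by the group's range, exceeded Dixon's 95% critical value. Chance flags about 1 in 20 groups, and none of the 9 genes was among them. In WT, replicate 1 was set apart as the highest library for Stfa1 (2.09 CPM), BC100530 (1.79 CPM), G0s2 (243.4 CPM) and Msrb1 (54.73 CPM) and as the lowest for Jak2 (26.68 CPM). WT replicate 4 was the lowest for Prtn3 (0.38 CPM) and the highest for Scgb1a1 (97549.8 CPM). In TR, replicate 3 was the lowest for Mmp9 (2.07 CPM) and for Stfa3 (0 reads, CPM of 0), and replicate 2 was the lowest for Msrb1 (38.54 CPM).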

How the results depend on the processing

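Over 19 alternatives, Ltf (log2 fold change -1.41 to -0.99) and Lcn2 (-0.41 to -0.29) stayed called lower in all, and Stfa2l1 (-1.57 to -1.03) in the 18 that tested it, since a filter of 5 CPM removed it, Ngp and Camp. Retnlg (-0.50) was called with DESeq2, edgeR, TMM, median-ratio or quantile scaling (-0.52 each) and with the replicate number as a block (-0.50, adjusted p = 0.00226), and ran from -0.64 to -0.35 when 1 library was left out. The number of the 9 genes called lower was 5 without TR replicate 1 and 3 or 4 without any other library. With 1 library left out, the log2 fold change lay between -0.26 and 0.07 for S100a8, -0.24 and 0.18 for S100a9, -0.57 and 0.02 for Ngp, -0.21 and 0.41 for Camp, and -0.27 and 0.03 for Csf3r. S100a9 was also negative with TMM or median-ratio scaling (-0.00 each) and quantile normalization (-0.05). Ncapg2, at -0.03, turned to 0.03 with quantile normalization and ran from -0.08 to 0.02 when 1 library was left out. The cause was not tested. Numbers of all genes called ran from 1741 to 2387 higher and from 1552 to 2361 lower.

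Same-numbered libraries of the genotypes correlated at -0.00287 to 0.0646 in their deviations, and 3 of 8 libraries correlated best with their own number, so the numbers were not taken to pair animals. With the replicate block 4 of the 9 genes were called lower. Among 42 further genes named, calls ended in 55 and began in 3 of their alternatives. Depth limits Ngp, Camp and Stfa2l1, which had 15 to 107 reads per library.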
